A study of Homo sapiens with 2 samples.

Results

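Genes of vesicle transport between the endoplasmic reticulum (ER) and the Golgi apparatus were examined in RNA-Seq data of SF-539 cells, an established human glioblastoma (GBM) cell line. The cells had been transduced with a lentiviral pGIPZ control shRNA (shControl) or with an shRNA against FKBP9 (shFKBP9), grown in DMEM with serum and selected with puromycin as stable clones, so that both carry a vector and its resistance gene. The study made several FKBP9 shRNAs, and which of them the sequenced cells carried is not given in the sources used here. Total RNA of each was sequenced as 1 library, so no difference described here has a replicate check. The comparison asks how the RNA of the transport machinery stands when FKBP9, an ER-resident prolyl isomerase, is depleted. The genes were taken by name from general knowledge of the pathway, with no measured value in the rule. Earlier results of these data were known when they were chosen. They are 37 of the 58735 genes in the deposited table and of its 19951 protein-coding genes. They comprise 14 genes of the COPII coat and its assembly, 9 genes of the COPI coat and 14 genes of cargo receptors. The shRNA was active at the RNA level: FKBP9 was at 49.8 FPKM (fragments scaled to the length of the gene and to the depth of the library) in shControl and at 4.68 FPKM in shFKBP9.

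The libraries held 18116873 fragments on genes in shControl and 17158514 in shFKBP9, of which the 37 genes took 0.612% and 0.623%. The labels call SF-539 epithelial glioma cells of brain. Mesenchymal markers were abundant, with VIM at 277 FPKM in shControl and 295 FPKM in shFKBP9 and COL1A1, a collagen chain that travels through these vesicles, at 837 and 884 FPKM. The astroglial and neural stem markers GFAP, S100B, SOX2 and OLIG2 and the epithelial markers CDH1, EPCAM and KRT18 were under 1 FPKM in both libraries, NES was at 2.36 and 2.17 FPKM and KRT8 at 1.28 and 1.09 FPKM. PTPRC, a marker of blood cells, had 0 fragments in both. In bulk RNA, fewer cells that express a gene and less RNA of it per cell cannot be told apart.

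COPII vesicles carry newly folded proteins out of the ER. The small GTPase SAR1, loaded by the exchange factor SEC12 (encoded by PREB) and organized by SEC16A, recruits the inner coat of SEC23 and SEC24, which binds cargo, and then the outer coat of SEC13 and SEC31. COPI vesicles run in the other direction, from the Golgi back to the ER and within the Golgi, and their coat, the coatomer, is recruited by ARF1. Cargo receptors link soluble cargo in the lumen to these coats. KDEL receptors return escaped ER proteins by their C-terminal signal, LMAN1 with MCFD2 exports glycoproteins such as coagulation factors, and p24 proteins (TMED genes) and SURF4 serve both coats. The unfolded protein response, which the study examined after FKBP9 depletion, is known to induce many of these genes through XBP1 and ATF6.

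Because of that link, the promoters of the genes were searched for binding elements of the stress response. RefSeq promoters (build GRCh38.p14, 250 bases before to 50 bases after the start of the gene) were found for 33 of the 37 genes, and none was found for SEC24D, KDELR2, TMED4 and TMED9. The UPRE, the element TGACGTGG bound by XBP1 and ATF6, was present on either strand in 7 of these 33 genes (21.2%). Among 35116 promoters of all genes it was present in 0.729%, and among 8303 expressed protein-coding genes with a promoter in 1.26%. Of 49 genes of a wider list of transport genes and their transcription factors, 5 held it (10.2%), namely ARF1, GBF1, SCFD1, SEC16B and STX5. The 8 sites are shown with 10 bases on either side, on the strand of the gene, with the UPRE or its reverse complement in capitals; COPB2 holds a pair of them.
COPA, chr1:160343228-160343255, minus strand: agagggtcgcTGACGTGGaggcgtccga
COPB1, chr11:14499842-14499869, minus strand: ccacccccttCCACGTCAgccaaggact
COPB2, chr3:139389633-139389660, minus strand: cccggaagttCCACGTCAgtcagtctga
COPB2, chr3:139389826-139389853, minus strand: ctcagcggcaCCACGTCAcggcccttag
KDELR3, chr22:38468040-38468067, plus strand: gccgccctggCCACGTCAccgcccggcc
SEC16A, chr9:136484708-136484735, minus strand: ggccctggtgCCACGTCAgccggactga
SEC23A, chr14:39103222-39103249, minus strand: cccctcctctTGACGTGGcagaggcggc
SEC24A, chr5:134648596-134648623, plus strand: tgagagtcggTGACGTGGcggcgaggcc

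The other elements searched on both strands were not in these windows of the 33 genes. They were ERSE (CCAAT and CCACG separated by 9 bases, in 0.0769% of all promoters), ERSE-II (ATTGG and CCACG separated by 1 base, 0.0541%), CRE (TGACGTCA, 1.85%) and the C/EBP-ATF element (TGATGCAA, 0.866%) that ATF4 binds. UPRE and CRE share their first 6 letters, TGACGT, but a site counts for only 1 of them. In COPB1, the coatomer subunit with a UPRE whose RNA was highest in shFKBP9 relative to shControl, the element begins 48 bases before the RefSeq start used here. That start lies inside the gene as the deposited table annotates it, and so does the element. The 250 bases before that start (chr11:14499812-14500061, minus strand), with the element in capitals, are shown next.
COPB1 promoter: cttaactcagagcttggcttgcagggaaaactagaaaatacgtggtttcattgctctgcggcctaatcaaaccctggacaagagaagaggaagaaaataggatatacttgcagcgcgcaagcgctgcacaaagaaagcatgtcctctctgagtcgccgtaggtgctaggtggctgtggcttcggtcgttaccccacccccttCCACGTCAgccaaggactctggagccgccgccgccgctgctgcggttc

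All 37 genes were expressed, from TMED5 at 2.90 FPKM in shControl and 2.22 FPKM in shFKBP9 to SURF4 at 227 and 226 FPKM. Their median level over both libraries was 23.8 FPKM. The 10346 protein-coding genes that reached 1 FPKM in shControl or shFKBP9, used here as background, had a median of 7.34 FPKM. Cargo receptors were the most abundant group, with a summed FPKM of 881 in shControl and 898 in shFKBP9, followed by the COPI coat with 288 and 289 and the COPII coat with 225 and 226. FPKM was computed by the authors on the length of all annotated exons, which was 13.7 times the canonical transcript for TMED3 and at most 4.01 times for the other genes. On the canonical length, TMED3 moved from place 33 to place 9 among the 37 genes by level, so its low FPKM of 6.35 and 6.41 rests on that length. The log2 ratio of a gene depends on the length only through the 0.1 added to FPKM, while summed FPKM and shares between genes depend on it directly.

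**Figure D1:**
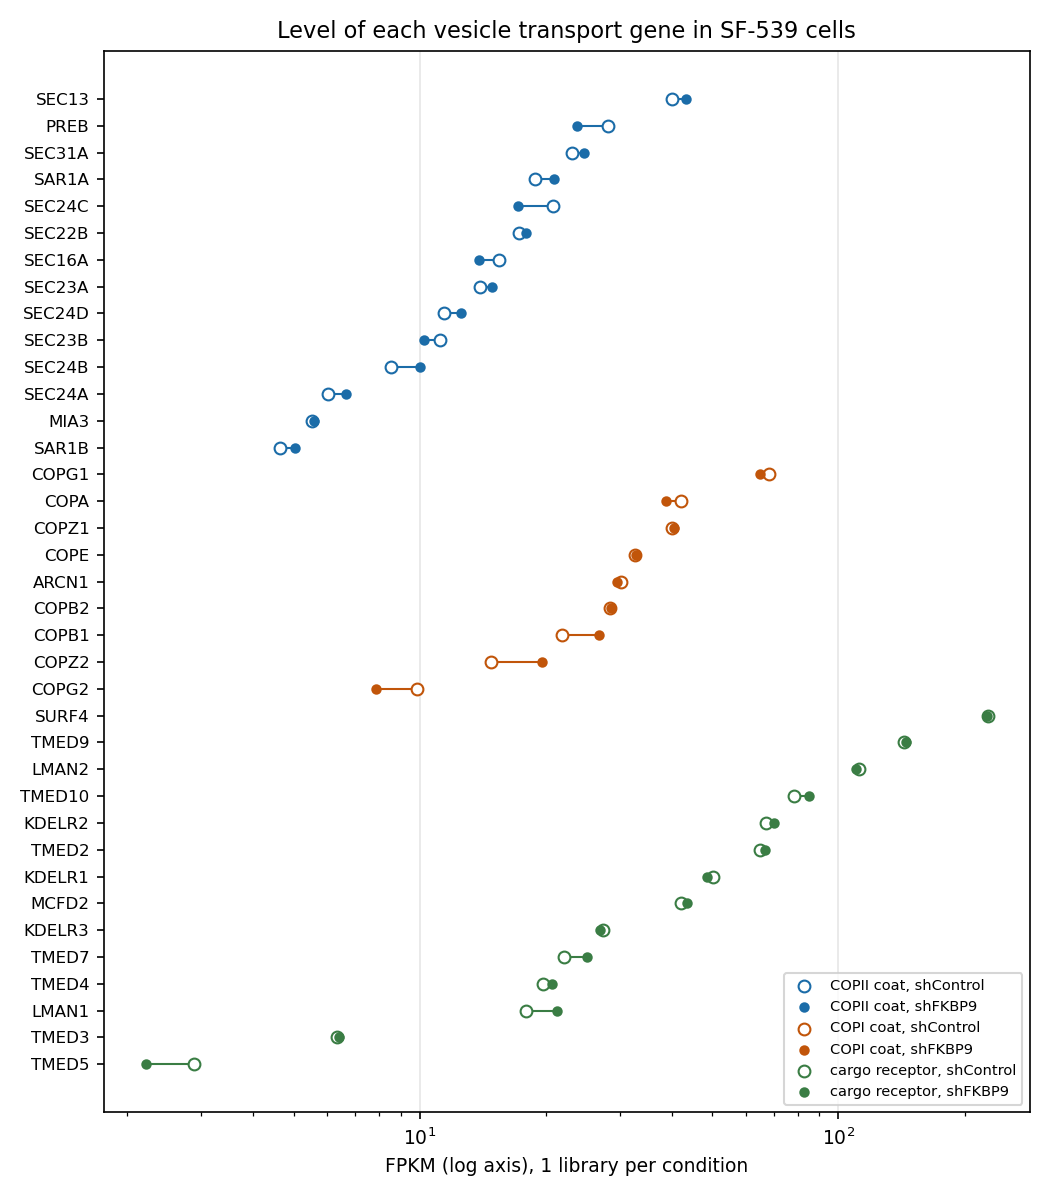
FPKM (horizontal log axis) of the 37 genes in shControl (open circles) and shFKBP9 (filled circles), 1 library each, sorted by mean level within the COPII coat, the COPI coat and the cargo receptors. The circles of a gene lie close together beside the spread between genes, which runs from TMED5 near 2.90 and 2.22 FPKM to SURF4 at 227 and 226 FPKM.

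Differences are given as the log2 ratio of shFKBP9 to shControl, with 0.1 added to both FPKM values. Their 95% intervals come from whole fragments recovered from the FPKM values, by the exact Clopper-Pearson method, and cover counting error only. They compare the libraries, not the conditions. None of the 37 genes (0 of 37) was more than 2-fold higher or lower, and among the 10346 background genes this held for 0.406%, and for 0.0794% of the 6297 of them with at least 1000 fragments. The ratios ran from -0.37 for TMED5 to 0.41 for COPZ2, and 13 of the 37 genes (35.1%) lay outside the range that holds the middle 50% of the 10346 genes, from -0.15 to 0.12. Of the genes with at least 1000 fragments, 43.4% lay outside that range. The interval lay above 0 for 12 genes (32.4%), below 0 for 7 genes (18.9%) and included 0 for 18. Over the 10346 genes the interval lay above 0 for 19.7% and below 0 for 24.0%. Because the 37 genes have many fragments and so narrow intervals, the genes with at least 1000 fragments are the closer background, and there the shares were 23.8% above and 29.7% below. Their median of 2483 fragments is still under the 4410 of the 37 genes, so this background is not matched for depth. The median log2 ratio was 0.022 for the 37 genes, -0.018 for the 10346 genes and -0.021 for the deeper ones. These counts take no variation between cultures into account. When a dispersion of 0.01 between libraries was assumed, 0 of the 37 genes had an interval above 0 and 0 had one below 0. This value makes the intervals too wide for ratios of the size seen here to exclude 0, so the count follows from it. The share of background genes with this dispersion was not computed.

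**Figure D2:**
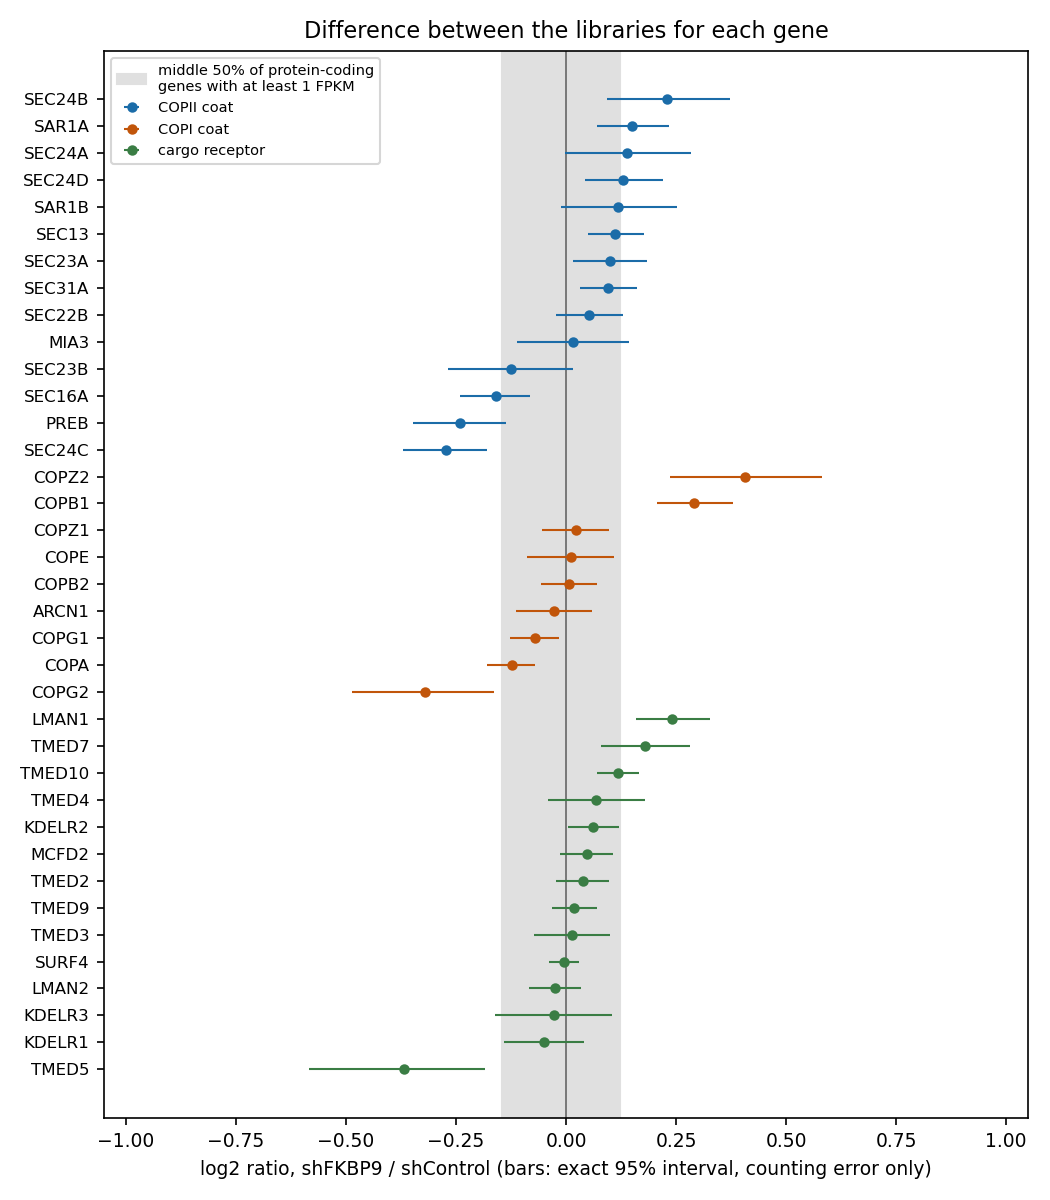
Log2 ratio of shFKBP9 to shControl (horizontal axis) for each gene by group, with exact 95% intervals for counting error only; the grey band is the middle 50% of 10346 protein-coding genes, from -0.15 to 0.12. Of the 37 genes, 13 lie outside the band, with COPZ2 at 0.41 and TMED5 at -0.37 at the ends.

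**Figure D3:**
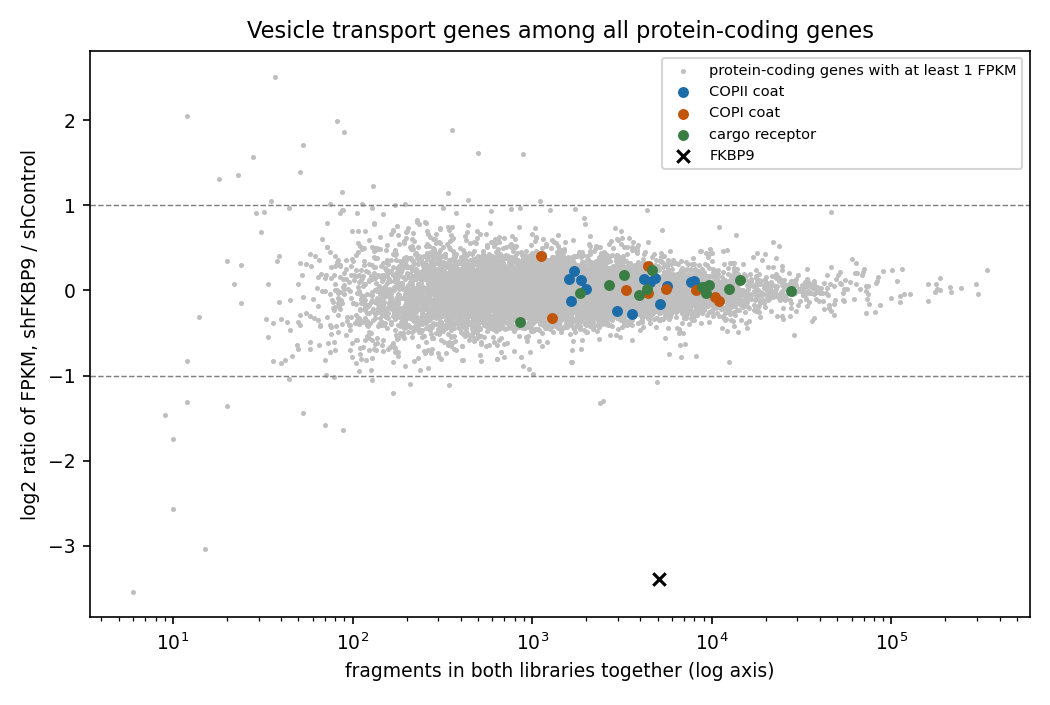
Fragments in both libraries together (horizontal log axis) against the log2 ratio of FPKM for the 10346 protein-coding genes (grey), the 37 vesicle transport genes (coloured by group) and FKBP9 (cross); dashed lines mark 2-fold. The 37 genes lie between -0.37 and 0.41, while FKBP9 lies at -3.38.

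The 14 genes of the COPII coat had a median log2 ratio of 0.097, with 10 ratios above 0 and 4 below, against a median of -0.018 for the 10346 background genes. The interval lay above 0 for 6 of them, SEC24B, SAR1A, SEC24D, SEC13, SEC23A and SEC31A, and below 0 for SEC24C, PREB and SEC16A. With TPM the interval of SEC23A included 0 (-0.0032 to 0.17) and that of SEC23B lay below 0 (-0.29 to -0.0032), and with scaling by the median ratio those of SEC24A (0.017 to 0.30) and SAR1B (0.0057 to 0.27) lay above 0. These are 42.9% of the group above 0 and 21.4% below, against 23.8% and 29.7% of the genes with at least 1000 fragments. With an assumed dispersion of 0.01 no member kept its call, which at these ratios follows from the assumed value. The largest difference of the group was the 1.21-fold one of SEC24C.

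The GTPase that starts the coat was slightly higher in shFKBP9. SAR1A was at 18.8 FPKM in shControl and 20.9 FPKM in shFKBP9 (log2 ratio 0.15, 95% interval 0.069 to 0.23). SAR1B, the form needed for export of lipoproteins, was at 4.63 and 5.04 FPKM, with 0.12 (-0.012 to 0.25). The proteins that load and place SAR1 were on the other side. PREB, the exchange factor that loads SAR1 with GTP, was at 28.1 and 23.8 FPKM, a log2 ratio of -0.24 (-0.35 to -0.14). SEC16A, the scaffold of ER exit sites, was at 15.5 and 13.8 FPKM, with -0.16 (-0.24 to -0.082). Thus the GTPase and its exchange factor stood on opposite sides of 0 in these libraries.

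The inner coat showed the same kind of spread among its paralogs. SEC23A, the GTPase-activating subunit mutated in a craniofacial disorder of collagen export, was at 13.9 FPKM in shControl and 14.9 FPKM in shFKBP9 (0.099, 0.015 to 0.18). SEC23B, mutated in a form of congenital anaemia, was at 11.1 and 10.2 FPKM (-0.12, -0.27 to 0.015). The SEC24 proteins bind the export signals of cargo and are commonly grouped as A with B and C with D. SEC24A was at 6.03 and 6.65 FPKM (0.14, -0.0015 to 0.28), and SEC24B at 8.53 and 10.0 FPKM (0.23, 0.094 to 0.37). SEC24C was lower, at 20.8 and 17.2 FPKM (-0.27, -0.37 to -0.18), although its closest relative SEC24D was higher, at 11.4 and 12.5 FPKM (0.13, 0.043 to 0.22). Of the exon bases of SEC24C in GENCODE release 44, 42.8% are also annotated to the overlapping gene ENSG00000279689. Whether the counting used strand is not given in the sources used here, and fragments of the pair could not be told apart without it.

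The outer coat and its partners were near the level of shControl. SEC13, which is also a nuclear pore protein, was at 40.0 FPKM in shControl and 43.3 FPKM in shFKBP9 (0.11, 0.049 to 0.18). SEC31A was at 23.1 and 24.6 FPKM (0.095, 0.031 to 0.16). The study lists SEC31A as upregulated on these libraries, so its direction is not independent of that choice. The study states a 2-fold change as its threshold, and the difference of SEC31A here is 1.07-fold. MIA3, known as TANGO1, which loads bulky collagens at ER exit sites, was at 5.53 and 5.60 FPKM (0.016, -0.11 to 0.14). SEC22B, a SNARE of vesicle fusion, was at 17.3 and 17.9 FPKM (0.053, -0.023 to 0.13). Its pseudogene SEC22B2 held 39 and 29 fragments, and the pseudogenes SEC22B2 and SEC22B4P amounted to 1.21% and 0.286% of its fragments.

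The 9 genes of the COPI coat had a median log2 ratio of 0.0065, and with TPM in place of FPKM this median was -0.012. The interval lay above 0 for COPZ2 and COPB1 and below 0 for COPG2, COPA and COPG1. With scaling by the median ratio the interval of COPG1 included 0 (-0.11 to 0.0030). These shares of 22.2% and 33.3% are near those of all genes with at least 1000 fragments, 23.8% and 29.7%. The coatomer has a single alpha, beta, beta prime, delta and epsilon subunit, and gamma and zeta subunits that each come from a pair of genes. The subunits with a single gene gave the following values. COPB1, the beta subunit, was at 21.9 FPKM in shControl and 26.8 FPKM in shFKBP9, a ratio of 0.29 (95% interval 0.21 to 0.38). COPA, the alpha subunit, was at 42.2 and 38.7 FPKM, with -0.12 (-0.18 to -0.070). These subunits belong to the same complex in equal numbers, but their RNAs were on opposite sides of 0. The remaining subunits lay near 0. COPB2, the beta prime subunit, was at 28.4 and 28.6 FPKM, with 0.0065 (-0.056 to 0.069). Of its exon bases, 34.1% are shared with the overlapping gene MRPS22. COPE, the epsilon subunit, was at 32.6 and 32.9 FPKM, with 0.011 (-0.088 to 0.11). ARCN1, the delta subunit, was at 30.2 and 29.6 FPKM, with -0.028 (-0.11 to 0.058).

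The gamma and zeta subunits held the largest differences of the coat. COPZ2, the second form of the zeta subunit, was at 14.8 FPKM in shControl, from 495 fragments, and at 19.6 FPKM in shFKBP9, from 623 fragments. Its log2 ratio of 0.41 (95% interval 0.24 to 0.58) is 1.33-fold, and 93.4% of the 10346 genes had a smaller difference in either direction. COPZ1, the first form, was at 39.9 and 40.5 FPKM (0.022, -0.055 to 0.099). COPG2, the second form of the gamma subunit, was at 9.83 FPKM from 737 fragments and at 7.85 FPKM from 558 fragments. Its log2 ratio was -0.32 (-0.49 to -0.16), and 14.2% of its exon bases are shared with other genes, MEST among them. COPG1, the first form, was at 68.1 and 64.8 FPKM (-0.071, -0.13 to -0.015). The minor forms of gamma and zeta therefore lay on opposite sides of 0.

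Cargo receptor genes were the most abundant of the 3 groups and had the smallest ratios. The 14 genes had a median absolute log2 ratio of 0.048, against 0.13 for the COPII coat, 0.071 for the COPI coat, 0.13 for the 10346 genes and 0.12 for those with at least 1000 fragments. They also had the most fragments, with a median of 6776 against 3887 for the COPII coat and 4410 for the COPI coat. The median of their signed ratios was 0.028. The interval lay above 0 for LMAN1, TMED7, TMED10 and KDELR2, below 0 for TMED5 and included 0 for 9 genes. With TPM the interval of KDELR2 included 0 (-0.014 to 0.10), and with scaling by the median ratio that of MCFD2 lay above 0 (0.0050 to 0.12). These are 28.6% above 0 and 7.14% below, against the same shares of 23.8% and 29.7%.

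KDEL receptors recognize ER proteins in the Golgi and pass them to COPI vesicles. KDELR1 was at 50.1 FPKM in shControl and 48.4 FPKM in shFKBP9 (-0.049, -0.14 to 0.042). KDELR2 was at 67.3 and 70.2 FPKM (0.062, 0.0040 to 0.12). KDELR3, which holds a UPRE, was at 27.4 and 26.9 FPKM (-0.028, -0.16 to 0.11). The summed FPKM of the receptors was 144.8 in shControl and 145.5 in shFKBP9.

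Lectin receptors bind the sugar chains of glycoproteins. LMAN1, also called ERGIC-53, was at 18.0 FPKM in shControl and 21.3 FPKM in shFKBP9, a log2 ratio of 0.24 (0.16 to 0.33). Its partner MCFD2, which together with it exports coagulation factors V and VIII, was at 42.1 and 43.5 FPKM, with 0.047 (-0.013 to 0.11). LMAN2, also called VIP36, was at 112 and 110 FPKM, with -0.024 (-0.084 to 0.035). SURF4, an export receptor of soluble proteins that cycles between both organelles, had the most fragments of all 37 genes, 14174 and 13399. Its log2 ratio of -0.0044 (-0.039 to 0.030) was the one nearest to 0 with FPKM as deposited. With scaling by the median ratio LMAN2 (-0.0063) was nearer to 0 than SURF4 (0.014). With TPM, TMED9 (0.00051) was nearer than SURF4 (-0.023).

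The p24 proteins form mixed complexes in COPI and COPII vesicles and were spread on either side of SURF4. TMED10 was at 78.3 FPKM in shControl and 85.0 FPKM in shFKBP9 (0.12, 0.071 to 0.17). TMED7 was at 22.1 and 25.04 FPKM (0.18, 0.080 to 0.28), and 20.0% of its exon bases are shared with the readthrough TMED7-TICAM2 and an antisense gene. TMED5 was lower, at 2.90 FPKM from 494 fragments and 2.22 FPKM from 359 fragments, a log2 ratio of -0.37 (-0.58 to -0.18). It was the lowest of the 37 genes both in level and in ratio. The intervals of the other p24 genes included 0. TMED2 was at 64.9 and 66.6 FPKM (0.038), TMED3 at 6.35 and 6.41 FPKM (0.014), TMED4 at 19.7 and 20.7 FPKM (0.068) and TMED9 at 143 and 145 FPKM (0.019).

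Since FKBP9 carries an ER retrieval signal itself, the genes of other proteins with such a signal were set against their receptors. In the canonical translations of GENCODE release 44, 28 genes of the table ended in KDEL, HDEL or RDEL, and 26 of them reached 1 FPKM. FKBP9, which ends in HDEL, made up 2.26% of their summed FPKM in shControl and 0.219% in shFKBP9. The sum was 2201 FPKM in shControl and 2139 FPKM in shFKBP9, or 15.2 and 14.7 FPKM of client per FPKM of KDEL receptor. The log2 ratio of this load was -0.048 (95% interval -0.097 to 0.00076, from the counting error by a normal approximation). When any residue was allowed before DEL, the interval excluded 0 (-0.051, -0.10 to -0.0019), so the call depends on which genes are counted. That wider set adds genes with other endings, such as VDEL and PDEL, and still holds FKBP9. Its load without FKBP9 was not computed. For the genes ending in KDEL, HDEL or RDEL, the load without FKBP9 was 14.9 and 14.7, with -0.018 (-0.068 to 0.031). Of the 25 expressed clients other than FKBP9, the interval lay above 0 for 9, below 0 for 9 and included 0 for 7. These are 36.0% in each direction, against 23.8% above and 29.7% below among all genes with at least 1000 fragments. The clients are not matched to that background in depth. They run from RCN3, with 104 fragments in shControl and 62 in shFKBP9, to CALR, with 37217 and 35245. The background has a median of 2483 fragments over both libraries together. With an assumed dispersion of 0.01, 1 client kept an interval above 0, the collagen prolyl hydroxylase P3H2, and 1 kept an interval below 0, the calcium-binding protein RCN3, both named after their values were seen. They had the highest and the lowest ratio of the 25 clients. The share of background genes that keep a call with this dispersion was not computed.

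The load was carried by a few chaperones, the 5 most abundant of which made up 76.9% of the sum in shControl. CALR, the calcium-binding lectin chaperone calreticulin, was at 757 FPKM in shControl and 756 FPKM in shFKBP9 (-0.0018, -0.023 to 0.019). HSPA5, the Hsp70 of the ER, was at 403 and 372 FPKM (-0.12, -0.14 to -0.091). P4HB, a disulfide isomerase, was at 232 and 227 FPKM (-0.033, -0.060 to -0.0054). HSP90B1, the Hsp90 of the ER, was the only one of the 5 on the other side of 0, at 186 and 222 FPKM (0.25, 0.22 to 0.28). SERPINH1, the collagen chaperone HSP47, was at 114 and 111 FPKM (-0.039, -0.075 to -0.0032).

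Within families of paralogs the balance between members can be compared without any scaling of the libraries. It was computed for 14 pairs in 7 families as the ratio of the fragments of both genes in shFKBP9 over that in shControl, with the exact conditional 95% interval, which again covers counting error only. The interval excluded 0 on the log2 scale for 8 of the 14 pairs, of which 3 share SEC24C. No share over other pairs of genes was computed, and since the intervals of 23.8% and 29.7% of single genes with at least 1000 fragments already lie above and below 0, the count is not read as a property of paralogs. With an assumed dispersion of 0.01 for each gene and library the interval excluded 0 for 0 of the 14 pairs, which at these ratios follows from the assumed value. The summed FPKM of a family differed less than its members did in the SEC24 family, at 46.8 in shControl and 46.4 in shFKBP9, and in the SEC23 pair, at 25.1 in both. The same held for the KDEL receptors, at 144.8 and 145.5, and for LMAN1 with LMAN2, at 130.1 and 131.5. It did not hold for SAR1, at 23.5 and 25.9, COPZ, at 54.7 and 60.1, or COPG, at 77.9 and 72.7. Members on opposite sides of 0 offset each other in a sum. In the SEC24 family the share of SEC24C was 44.4% in shControl and 37.1% in shFKBP9, while that of SEC24B was 18.2% and 21.6%. SEC24C was lower relative to each of the others, with log2 ratios of -0.42 (-0.59 to -0.24) against SEC24A and -0.51 (-0.68 to -0.34) against SEC24B, and SEC24D relative to SEC24C was at 0.41 (0.28 to 0.54). SEC24A, SEC24B and SEC24D were not separated from each other at this depth, with log2 ratios of 0.091 (-0.11 to 0.29) for B against A, -0.010 (-0.18 to 0.16) for D against A and -0.10 (-0.27 to 0.064) for D against B.

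**Figure D4:**
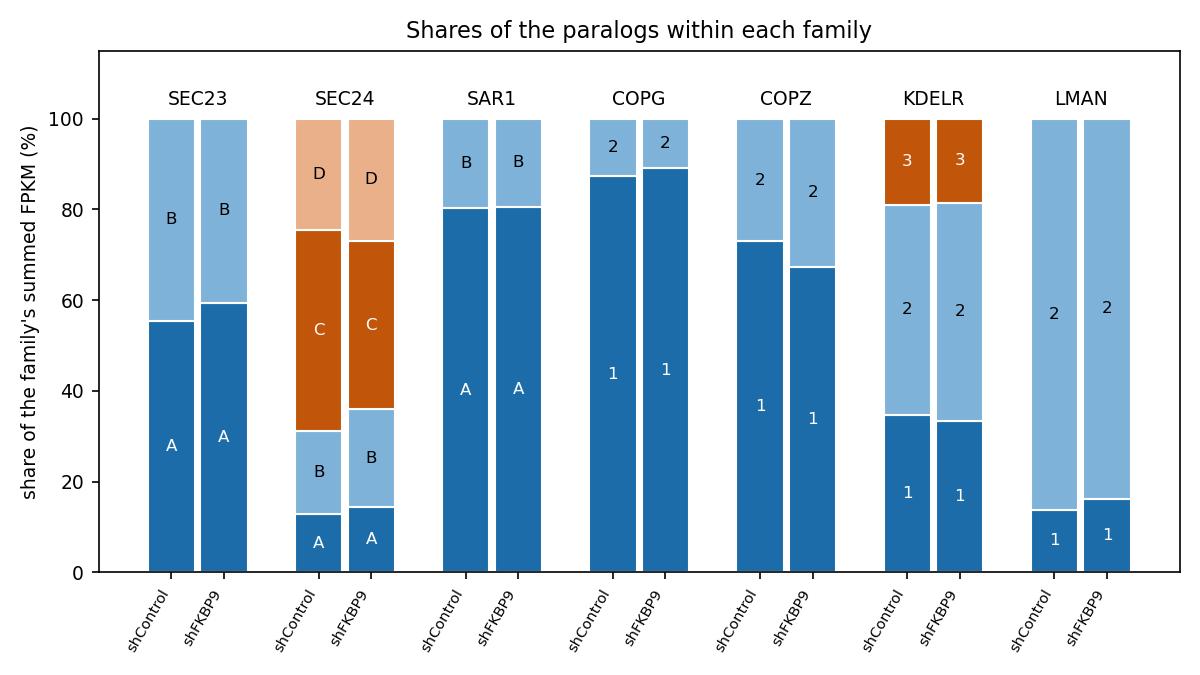
Share of each paralog (A to D or 1 to 3, as labelled in the bars) in the summed FPKM of its family, in percent, for shControl and shFKBP9, 1 library each. SEC24C takes 44.4% of its family in shControl and 37.1% in shFKBP9, and COPZ2 takes 27.0% and 32.6%.

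In the other families the shares differed by less than 6 percentage points between the libraries. COPZ2 made up 27.0% of the zeta genes in shControl and 32.6% in shFKBP9, with a log2 ratio against COPZ1 of 0.39 (0.20 to 0.58). COPG2 made up 12.6% and 10.8% of the gamma genes, with -0.25 (-0.42 to -0.083) against COPG1. SEC23B made up 44.5% and 40.7% of the SEC23 pair, with -0.23 (-0.39 to -0.061) against SEC23A. LMAN2 made up 86.2% and 83.8% of the lectins LMAN1 and LMAN2, with -0.27 (-0.37 to -0.16) against LMAN1. SAR1B made up 19.8% and 19.4% of the SAR1 pair, and its ratio against SAR1A of -0.031 (-0.19 to 0.12) included 0. KDELR2 relative to KDELR1 was at 0.11 (0.0030 to 0.22), and both pairs with KDELR3 included 0.

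Genes with the UPRE lay on both sides of 0. The 7 genes with the element had log2 ratios from -0.16 for SEC16A to 0.29 for COPB1 with a median of 0.0065, and the 26 genes without it had a median of 0.019. The interval lay above 0 for COPB1 and SEC23A and below 0 for SEC16A and COPA of these 7, or 28.6% in each direction. With TPM that of SEC23A included 0, and with scaling by the median ratio that of SEC24A lay above 0 (0.017 to 0.30). Of the 26 genes without it, 8 (30.8%) were above 0 and 5 (19.2%) below, and of all genes with at least 1000 fragments 23.8% and 29.7%. COPB2, with a pair of sites, was at 0.0065.

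Other genes of the pathway were read from a list of 62 genes, of which 56 act in transport between ER and Golgi and 6 encode transcription factors known to act on coat genes. Of the 56 transport genes, 51 reached 1 FPKM. None of the 51 was past 2-fold (0 of 51), the interval lay above 0 for 14 (27.5%) and below 0 for 11 (21.6%), and the median was 0.013. Of the 51 genes, 43 had at least 1000 fragments, and the shares over all genes of that depth were 23.8% and 29.7%. With an assumed dispersion of 0.01 the counts of the 51 genes were 0 above and 0 below, which at these ratios follows from the assumed value. Among 5 expressed accessory genes of COPII, MIA2, the partner of MIA3 in collagen export, was at 1.14 FPKM in shControl and 1.46 FPKM in shFKBP9 (0.34, 0.10 to 0.63). TFG, which organizes ER exit sites, was lowest at 31.7 and 30.5 FPKM (-0.057, -0.13 to 0.019). Among the 9 genes of the ARF cycle, which recruits the coatomer, ARF4 was highest at 105 and 117 FPKM (0.16, 0.11 to 0.22). GBF1, the exchange factor of the ARF proteins at the early Golgi, was lowest at 21.1 and 18.6 FPKM (-0.18, -0.26 to -0.097).

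Tethers and SNAREs dock and fuse the vesicles. RINT1, a subunit of the tether at the ER, was highest of the 15 expressed tethers and Rab proteins at 3.64 and 4.80 FPKM (0.39, 0.15 to 0.65). GORASP1, a stacking protein of the Golgi known as GRASP65, was lowest at 7.24 and 5.60 FPKM (-0.36, -0.52 to -0.22). Among 10 genes of SNAREs and their regulators the values ran from -0.14 for BET1L, at 17.3 and 15.7 FPKM, to 0.21 for SCFD1, at 5.77 and 6.67 FPKM. Of 12 further expressed receptors and adaptors, YIPF5, a membrane protein of the early Golgi, was highest at 19.6 and 25.6 FPKM (0.38, 0.28 to 0.49). LMAN2L, a lectin related to LMAN2, was lowest at 19.5 and 17.1 FPKM (-0.18, -0.32 to -0.049).

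**Figure D5:**
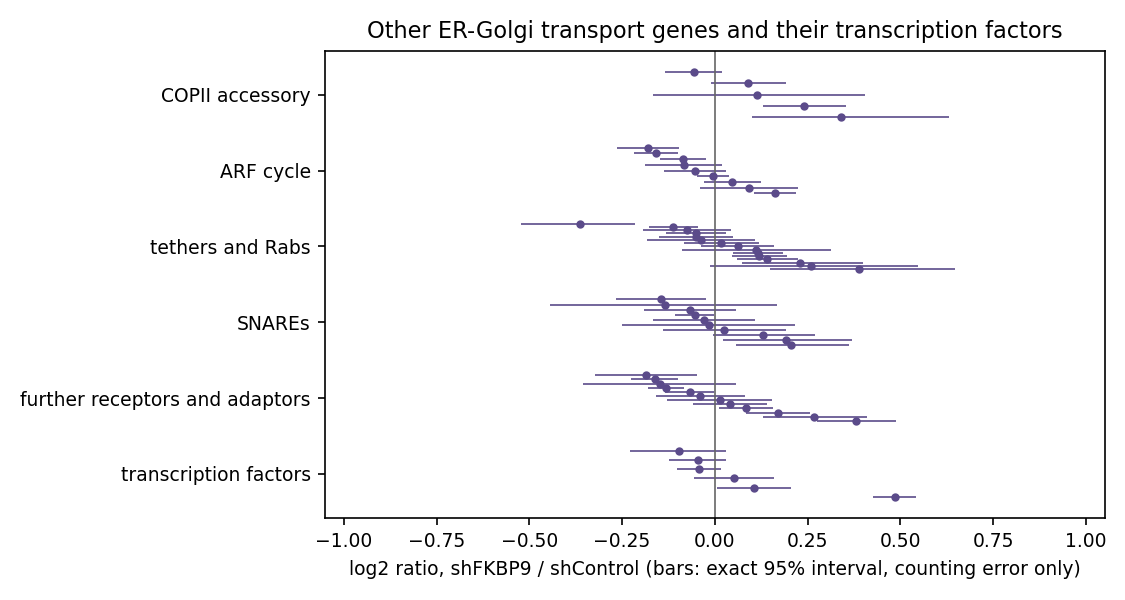
Log2 ratio of shFKBP9 to shControl (horizontal axis) for 51 other expressed genes of transport between ER and Golgi and 6 transcription factors, by group, with exact 95% intervals for counting error only. The transport genes run from -0.36 for GORASP1 to 0.39 for RINT1, and the transcription factor ATF4 lies at 0.48.

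Of the 6 transcription factors, 2 had an interval above 0 (33.3%, against 23.8% of the genes with at least 1000 fragments) and 0 below. ATF4, the factor of the integrated stress response, was at 92.7 FPKM in shControl and 130 FPKM in shFKBP9 (0.48, 0.43 to 0.54), and it is among the genes the study lists as upregulated on these libraries. Its ratio here is under the 2-fold change that the study states as its threshold. Of all 57 expressed genes of the list, ATF4, which had the largest ratio, was the only one whose interval stayed above 0 with an assumed dispersion of 0.01. The share of background genes that keep a call with this dispersion was not computed. XBP1 was at 29.1 and 31.3 FPKM (0.11, 0.0049 to 0.21), for all transcripts together, and with TPM its interval included 0 (-0.013 to 0.19). CREB3 was at 40.7 and 42.2 FPKM (0.051, -0.057 to 0.16). ATF6 was at 7.19 and 6.71 FPKM (-0.098, -0.23 to 0.031). CREB3L1 and CREB3L2, factors that are known to induce SEC23 and SEC24 genes in secretory cells, were at -0.042 (-0.10 to 0.017) and -0.047 (-0.12 to 0.031).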

How the data were processed

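RNA-Seq was made from shControl and shFKBP9 cells of the line SF-539, with 1 library per condition. Per the study's methods and the submitters' processing notes, reads with adapters, undetermined bases or low quality were removed, and paired-end reads were aligned to hg38 with HISAT2 2.0.5 and counted per gene with featureCounts 1.5.0-p3. The authors deposited 1 table of FPKM per gene with gene lengths, and 0 further columns of values per library were present. The annotation release and the strand setting of the counting are not given in the sources used here.

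Fragments were recovered as FPKM times gene length divided by the smallest such product in the library. In both libraries 100% of the values above 0 were whole within 0.001, and 1 fragment on 1 kilobase equals 0.0552 FPKM in shControl and 0.0582 FPKM in shFKBP9. Log2 ratios were computed with 0.1 added to FPKM, and calls used a 2-fold difference with at least 1 FPKM in either library, or an exact 95% interval that excluded 0. Simulated data with 200 changed genes gave 200 calls, and 95.1% of 10045 intervals held the true value. The changes were planted well past 2-fold in genes with many fragments, and counting error was the only noise. Both outcomes follow from these settings, so they check the computation only and do not bear on smaller differences or on variation between cultures. No test between conditions is possible with 1 library each.

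The 37 genes, the other lists and the motifs were chosen with earlier results of these data known. Named genes are FKBP9, the 37 genes, of the wider list those past 2-fold and, per group, the highest and lowest ratio among genes with at least 50 fragments, the 5 most abundant clients of the KDEL receptors, and pseudogenes with at least 10 fragments. XBP1, CREB3, CREB3L1, CREB3L2, ARF1, SEC16B, STX5, P3H2, RCN3 and the marker genes were named beyond this rule, after their values were seen, as were ENSG00000279689, MRPS22, MEST and TMED7-TICAM2, which overlap members. Protein ends were read from GENCODE release 44, since RefSeq proteins were not used here. Alternatives were 1 or 0.01 added to FPKM, scaling by the median ratio, TPM, other minimums and folds, fragments of pseudogenes added, other backgrounds, assumed dispersions and lists without SEC31A or FKBP9. Python 3.11.15, numpy 2.4.6, pandas 2.3.3, scipy 1.17.1, matplotlib 3.10.9 and Biopython 1.88 were used.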

Additional observations from a re-analysis of the deposited data

How the results depend on the processing

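The counts of genes with an interval above or below 0 depend on taking counting error as the only error. With an assumed dispersion of 0.01 between libraries, 0 of the 37 genes had an interval above 0 and 0 had one below 0, and the same held with 0.04. Of the 57 genes of the wider list, 1 (the transcription factor ATF4) remained above 0 and 0 below 0 with 0.01, and 0 and 0 with 0.04. Of the 14 paralog pairs, the interval excluded 0 for 0 with 0.01 and 0 with 0.04. These dispersions make the intervals too wide for nearly all ratios of these lists to exclude 0, so such counts follow from the assumed values. Shares of background genes with them were not computed. Under the other alternatives the counts of the 37 genes ranged from 10 to 15 above 0 and from 6 to 8 below 0, and 0 were past 2-fold or past 1.5-fold. Scaling by the median ratio shifted log2 ratios by 0.018 and TPM by -0.018 before 0.1 was added, which makes the shift of low genes differ. The median of the COPI coat was 0.025 with median scaling and -0.012 with TPM, and that of the COPII coat was 0.099 without SEC31A. No ratio of the 37 genes left its interval under the 5 alternatives run on single genes. The load of the KDEL receptors was -0.051 (-0.10 to -0.0019) when any residue was allowed before DEL, which changes its call. The length of the canonical transcript in place of the length in the table, which moved TMED3, the counts without the transcription factors and the dispersion for the paralog pairs and for the clients of the KDEL receptors were chosen after seeing the data. Leaving out replicates was not possible with 1 library per condition, and no paired analysis was possible because there are no replicate numbers.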
